A study of Drosophila melanogaster with 6 samples.

Results

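The mitochondrial ribosomal protein genes of Drosophila melanogaster were examined in whole embryos that were wild type or null for trh (trachealess), which encodes a bHLH-PAS transcription factor needed to form the tracheal system. Genes were chosen by name, as those whose platform symbol starts with mRpL (large subunit) or mRpS (small subunit), and each was read from the brightest probe set that names it alone. This gave 69 genes of 11983 measured in the same way, 44 of the large and 25 of the small subunit. They had 71 such probe sets, since only mRpL47 and mRpS11 had 2. The RefSeq gene table lists 4 further mRpL or mRpS genes. For mRpL34 and mRpL37 no probe set was named, and those for mRpL53 and mRpS10 are shared with CG33155 and CG34316, so these 4 were not counted.

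RNA was measured on 6 Affymetrix Drosophila Genome 2.0 arrays, 3 from wild type and 3 from trh null embryos. Embryos of both genotypes were collected over 8 h, aged for 11 h and passed through a COPAS biosorter, and are labelled as stages 11 to 16 (to stage 17 in the description of the wild type arrays). The trh null embryos were picked because they lacked the GFP of the balancer chromosome. The labels give neither the trh allele nor the wild type strain, and each array holds RNA of pooled whole embryos. Whether arrays of the same genotype stem from separate collections is not stated, so p-values reflect only the differences among these arrays and may be technical in part. Precision is limited by having 3 arrays per genotype.

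Mitochondria keep a ribosome of their own, related to that of bacteria, which translates the few proteins of the mitochondrial genome, all of them parts of the respiratory chain and ATP synthase. Its RNA comes from mitochondrial DNA, while its proteins are encoded in the nucleus, made in the cytosol and imported. The large subunit forms the peptide bond and the small subunit reads the messenger RNA. Part of the proteins have bacterial homologues and carry their numbers, and part were gained by mitochondria. In flies, loss of a mitochondrial ribosomal protein slows growth, and partial loss of the small subunit protein encoded by tko gives seizure-prone adults.

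The second wild type array differed from the first and the third. Its correlation with them over all probe sets was 0.979 and 0.9755, while wild type arrays 1 and 3 reached 0.9943 and the trh null arrays 0.9952 to 0.9984 among themselves. The median signal of all probe sets was nearly level, from 6.16 to 6.22 on the log2 scale. Genotype differences, counts and medians are therefore given with and without that array. The 3 tracheal marker genes (btl, Gasp and Osi19) all fell in trh null embryos, as did 2 of 3 somatic muscle markers, whose array medians were 11.36 to 11.85 in wild type and 10.49 to 10.66 in trh null embryos. Some markers of other tissues rose: 2 of 3 for epidermis (shg and grh) and 1 of 4 for hemocytes (Pxn). The differences of ect (epidermis, -0.13) and Hml (hemocytes, -0.075) were negative and did not pass. Of 4 neuronal markers 0 passed, and elav, the highest, had a difference of 1.65 (limma adjusted p = 0.0819). Without wild type array 2, elav and brp rose and Appl fell among them. In that fit all 3 tracheal, all 3 muscle and 1 of 3 midgut markers fell. The epidermis and hemocyte counts stayed the same. No marker of fat body, germline, flight muscle or adult female tissue passed in either fit. Control probe sets at the 3' and 5' ends of actin transcripts differed by 1.36 ± 0.09 on wild type and 0.76 ± 0.03 on trh null arrays (log2, SD, n = 3; exact two-sided permutation test, p = 0.1, the smallest that 3 arrays against 3 allow). The part of these differences in any result below was not tested.

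All 69 genes were well expressed. Their mean signal over the 6 arrays ran from 8.94 to 11.86 on the log2 scale, with a median of 10.48, and 66.1% of all genes lay below the dimmest of them. In the large subunit the probe sets of mRpL30, mRpL12, the protein of the flexible stalk that in bacteria recruits translation factors, and mRpL28 were the brightest. Those of mRpL45, whose mammalian homologue sits at the exit of the peptide tunnel, mRpL48 and mRpL11, a protein of the stalk base, were the dimmest. In the small subunit mRpS5, mRpS7 and mRpS16 were the brightest probe sets and mRpS29, mRpS6 and mRpS23 the dimmest. The brightness of a probe set depends on its probes, so this order describes the array and does not rank the transcripts.

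The signal of mRpL30 was 11.43, 11.93 and 11.23 on wild type arrays 1, 2 and 3 and 11.40, 11.40 and 11.44 on the trh null arrays. That of mRpS5 was 11.85, 12.19 and 11.89 in wild type and 11.80, 11.73 and 11.70 in trh null embryos. Both genes were highest on wild type array 2. For mRpL30 the genotypes overlapped, and for mRpS5 every trh null array lay below every wild type array, though its difference of -0.23 (SE 0.11) did not pass the test (-0.13 without wild type array 2). The difference of mRpL30 was -0.12, and 0.083 without that array. Among the dimmest, mRpL45 gave 8.84, 9.38 and 8.89 in wild type against 8.85, 8.81 and 8.90 in trh null embryos, again with wild type array 2 alone above the rest (difference -0.18, and -0.010 without it).

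**Figure D1:**
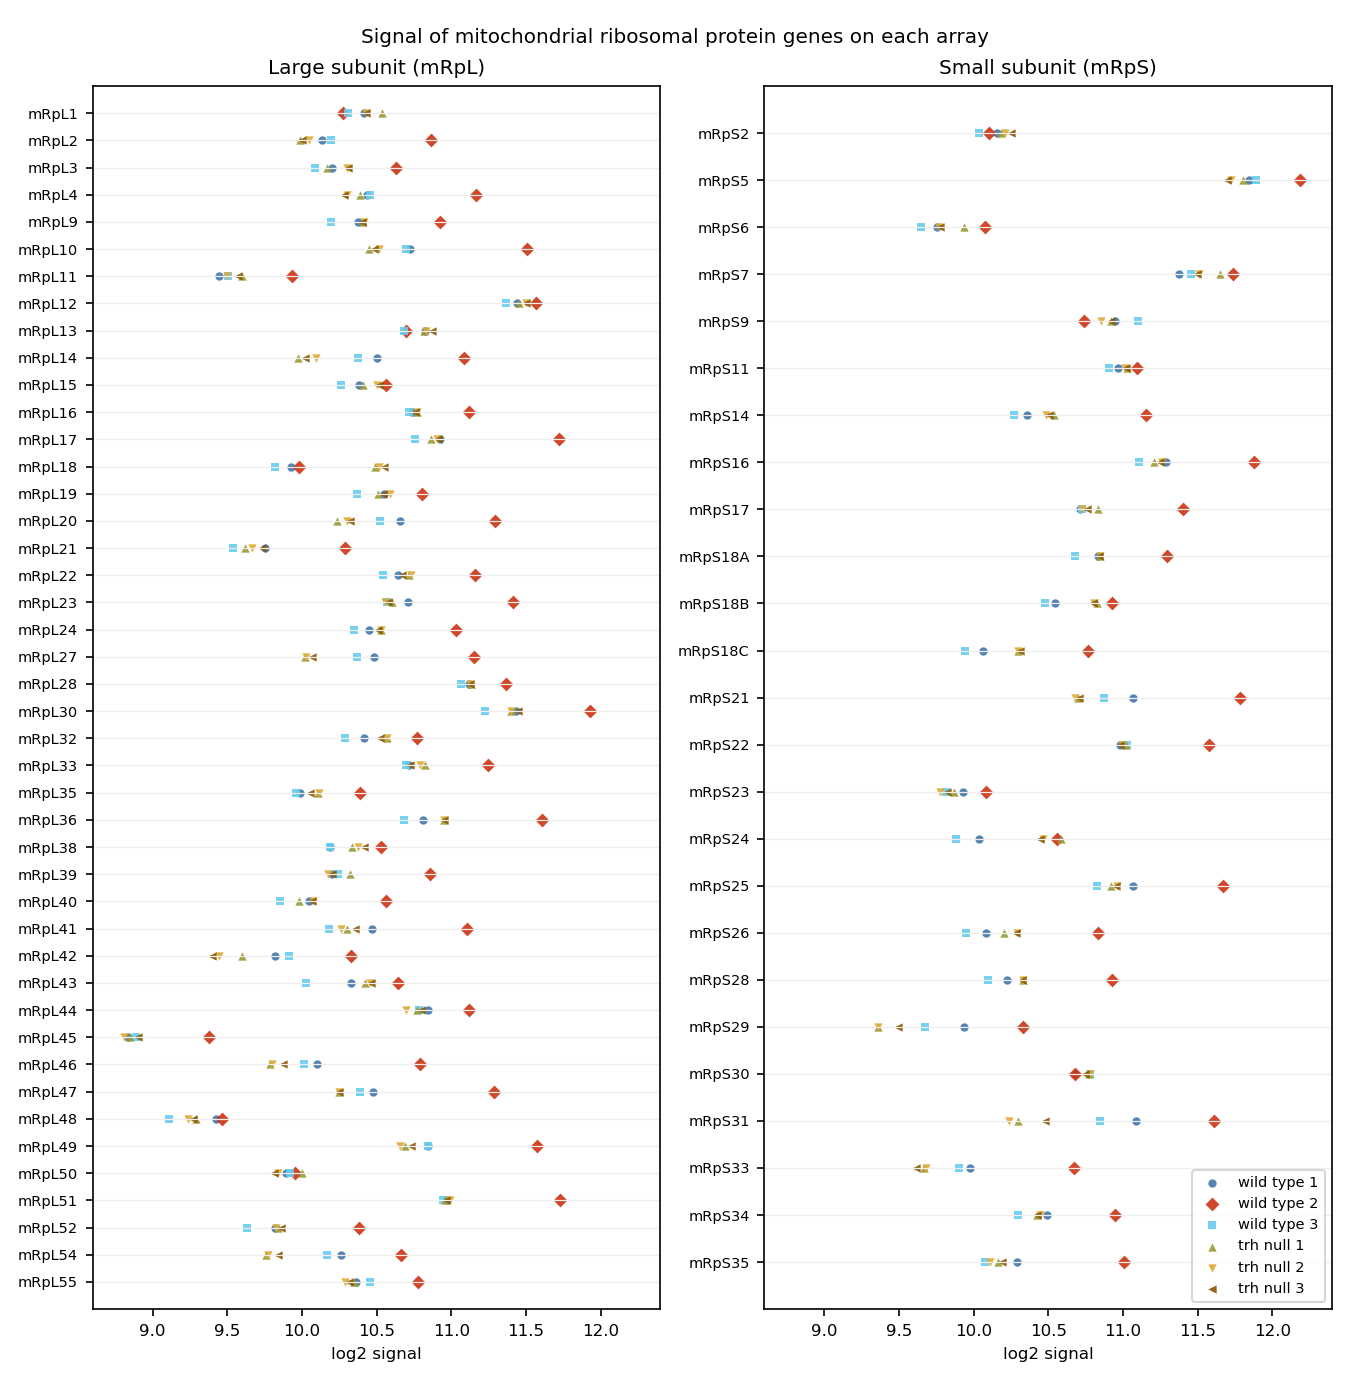
Log2 signal of each mitochondrial ribosomal protein gene on the 6 arrays, 44 large subunit genes on the left and 25 small subunit genes on the right, 1 row per gene and 1 point per array. The red diamonds, wild type array 2, lie to the right of every other point for 61 of 69 genes, while the trh null points of a gene lie close together.

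Wild type array 2 carried higher mitochondrial ribosomal protein signal than any other array. It was the highest of the 6 arrays for 61 of the 69 genes (88.4%, against 35.2% of all genes), and it exceeded both other wild type arrays for 64 of them (50.1% of all genes). The exceptions to the first count were mRpL1, mRpL13, mRpL18, mRpL50, mRpS2, mRpS9, mRpS24 and mRpS30. Over the 69 genes the array medians were 10.45, 10.93 and 10.35 in wild type and 10.42, 10.44 and 10.45 in trh null embryos. The 3 trh null medians thus lay between those of wild type arrays 1 and 3.

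Measured as wild type array 2 minus the mean of wild type arrays 1 and 3, this offset had a median of 0.57 (log2) over the 69 genes, 0.55 in the large and 0.58 in the small subunit, and 0.079 over all genes. It ran from -0.29 for mRpS9 to 0.88 for mRpL17. The signal of mRpL17 was 10.92, 11.72 and 10.76 in wild type and 10.86, 10.90 and 10.91 in trh null embryos. That of mRpS9 was 10.95, 10.74 and 11.10 in wild type and 10.92, 10.86 and 10.92 in trh null embryos, so this gene was lowest where most others were highest. Wild type array 3 was the lowest of the wild type arrays for 53 of 69 genes.

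Genes that work beside the mitochondrial ribosome showed smaller offsets on that array. The median was 0.41 over 10 mitochondrial translation factors, 0.30 over 20 aminoacyl-tRNA synthetases and related enzymes that serve mitochondria, 0.25 over 17 import and chaperone genes, 0.23 over 14 genes of mitochondrial DNA and RNA, and 0.27 over 76 respiratory chain and ATP synthase genes. Some of these genes were dim, down to a mean signal of 4.04 in the respiratory chain and 4.13 in the import list, against 8.94 for the dimmest of the 69. Over 34 cytosolic ribosomal protein genes the median offset was 0.072, near that of all genes, and single offsets ran from -0.36 to 0.82. Their median signal was 14.34, though the dimmest of them had a mean of 5.43. That median is near the highest signal of any gene (14.86), where offsets may be narrowed. This was not tested. The median offset was negative for the markers of somatic muscle (-0.48), epidermis (-0.31), trachea (-0.21), midgut (-0.17), neurons (-0.077), hemocytes (-0.072) and germline (-0.019). It was positive for fat body (0.068), flight muscle (0.060) and adult female tissue (0.044). These lists hold only 2 to 4 genes each. Single offsets ran from -1.55 to 0.68 in neurons and from -0.59 to 0.11 in trachea. The offset between array medians of the 69 genes was 0.52 in the deposited values, 0.57 after median centring, 0.51 after repeated quantile normalization and 0.38 after cyclic loess.

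Mitochondrial ribosomal protein genes are short, with a median gene length of 909 bp against 2263 bp for all genes. The offset had a median of 0.64 over the 35 shorter of them and 0.48 over the 34 longer. Across the 69 genes it correlated with log10 gene length at r = -0.44 (Spearman's rho -0.29), and across 11885 genes with a length at r = -0.37. These are descriptions across genes read from the same arrays, and genes are not independent replicates. mRpS9, the longest of the 69 at 13391 bp, also had the lowest offset (-0.29), and r without it was not computed. With each array's trend on gene length removed, the offset of the array medians was 0.34. The 3' minus 5' difference of the actin controls was 1.30 on wild type array 2 and 1.46 and 1.31 on the other wild type arrays. That of the GAPDH controls was 1.03 on wild type array 2 and 1.17 and 1.18 on the others. For eIF-4a it was 1.40 on that array and 1.59 and 1.56 on the others, so array 2 was the lowest in all of these controls. The parts of gene length and of the 3' to 5' difference in the offset were not tested.

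**Figure D2:**
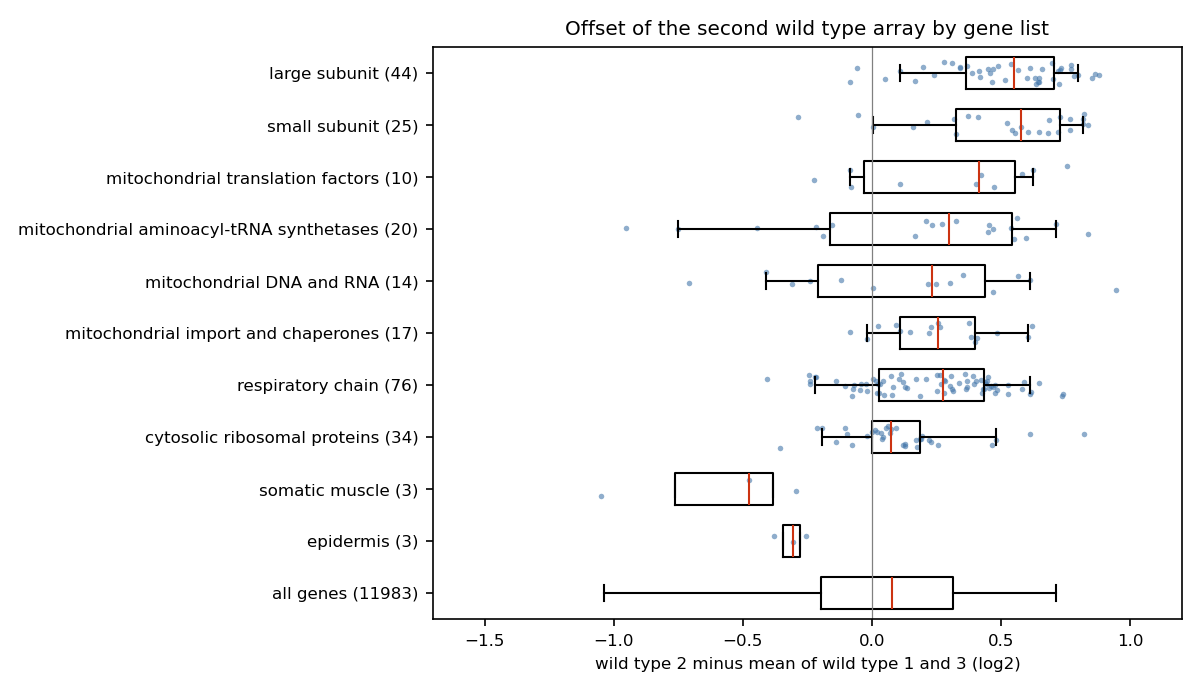
Signal of wild type array 2 minus the mean of wild type arrays 1 and 3 (log2) for each gene, by gene list, with the number of genes in parentheses. Points are genes, boxes span the middle 50% of a list, whiskers the 5th to 95th percentile and red lines the medians, which were 0.55 and 0.58 for the subunits, 0.27 for the respiratory chain, 0.072 for cytosolic ribosomal proteins and 0.079 for all genes.

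The spread between wild type arrays was wide for the same genes. The median SD over the 69 genes was 0.33 in wild type, 0.079 between wild type arrays 1 and 3 alone, and 0.033 in trh null embryos. Over all genes these medians were 0.20, 0.10 and 0.084. The largest SD among trh null arrays was 0.12, for mRpS31. The SE of the genotype difference had a median of 0.17 with 6 arrays and 0.075 without wild type array 2. A given difference could therefore pass more readily in the second fit.

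Of the 69 genes, 1 rose and 2 fell in trh null embryos, and 66 did not pass (limma, Benjamini-Hochberg over 18769 probe sets, adjusted p under 0.05). These are 1.45% and 2.9% of the members, set beside 6.79% of all genes that rose and 7.31% that fell, or 14.1% in either direction (11.8% of probe sets). Without wild type array 2, 4 rose (5.8%, all genes 17.4%) and 8 fell (11.6%, all genes 14.8%), and 57 did not pass. The share of members that passed was thus below that of all genes in each direction and in both fits, a gap for which no test is given. A gene that did not pass may still differ. In simulated data with 200 of 18769 probe sets changed, the 6-array fit recovered 0% of changes of 0.5 (log2). The share recovered depends on how many probe sets change, and a larger share (11.8%) passed in these data. In whole embryos, a lower signal from fewer cells and one from less RNA per cell cannot be told apart.

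mRpL18 was the member that rose. Its bacterial homologue binds the 5S rRNA of the large subunit. Its signal was 9.93, 9.98 and 9.82 on wild type arrays 1, 2 and 3 and 10.49, 10.51 and 10.55 on the trh null arrays. Every trh null array exceeded every wild type array, and wild type array 2 was close to the others. The rise was 1.52-fold, a log2 difference of 0.61 (SE 0.08, limma adjusted p = 0.00605), and 0.64 without wild type array 2 (limma adjusted p = 0.00177). The call held with any 1 array left out, with a highest adjusted p of 0.0459.

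mRpL54, a large subunit protein found in mitochondrial ribosomes and not in bacteria, fell. Its signal was 10.26, 10.67 and 10.17 in wild type and 9.76, 9.77 and 9.84 in trh null embryos. The genotypes did not overlap, and wild type array 2 was the highest. The fall was 1.49-fold, a log2 difference of -0.58 (SE 0.14, limma adjusted p = 0.0463), and without wild type array 2 the gene fell by 0.43 (limma adjusted p = 0.00771). The call also held without wild type array 3 and was lost without wild type array 1 (limma adjusted p = 0.0809) or any 1 trh null array (0.1441 to 0.1608).

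mRpS31, a small subunit protein of the same mitochondrial kind, showed the largest difference of the 69. Its signal was 11.09, 11.61 and 10.85 in wild type and 10.30, 10.24 and 10.48 in trh null embryos. All trh null arrays were below all wild type arrays. The fall was 1.79-fold, a log2 difference of -0.84 (SE 0.20, limma adjusted p = 0.0430), and it fell by 0.63 without wild type array 2 (limma adjusted p = 0.0080). As with mRpL54, the call held without wild type array 2 or 3 and was lost without wild type array 1 (0.0879) or any 1 trh null array (0.1191 to 0.1595).

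Counted by overlap, all 3 trh null values lay below all 3 wild type values for 17 members (24.6%, against 19.4% of all genes) and above them for 3 (4.35%, against 18.8%). The 3 were mRpL18, mRpL1, of the mobile L1 stalk, and mRpS2. mRpL1 read 10.41, 10.28 and 10.31 in wild type and 10.54, 10.43 and 10.43 in trh null embryos, a difference of 0.13 (SE 0.08; 0.10 without wild type array 2) that did not pass. mRpS2 read 10.16, 10.10 and 10.03 in wild type and 10.19, 10.21 and 10.25 in trh null embryos, a difference of 0.12 (SE 0.07; the same 0.12 without that array) that did not pass either. Without wild type array 2 there were 28 members without overlap on the higher side (40.6%, all genes 32.4%) and 18 on the lower (26.1%, all genes 26.6%).

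A shift of the 69 members toward lower trh null means rested on wild type array 2. With 6 arrays the trh null mean was the lower for 53 of 69 members, and the median difference, trh null minus wild type, was -0.11 (log2; middle 50% from -0.28 to -0.027), against 0.00080 over all genes. In the fit that left out wild type array 2, the trh null mean was the lower for 28 and the higher for 41, and the median was 0.038, against 0.027 over all genes. The direction of the median thus turned with 1 array.

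In the large subunit the most negative differences were those of mRpL27 and mRpL14, whose proteins have bacterial homologues, and mRpL54 came after them. mRpL27, whose bacterial homologue reaches the site of peptide bond formation, read 10.48, 11.15 and 10.37 in wild type and 10.02, 10.03 and 10.07 in trh null embryos. mRpL14 read 10.50, 11.08 and 10.38 in wild type and 9.98, 10.10 and 10.02 in trh null embryos. For both, the genotypes did not overlap, also among the other wild type arrays. The differences of -0.63 (SE 0.20) and -0.62 (SE 0.19) did not pass with 6 arrays (limma adjusted p = 0.106 and 0.0863). Without wild type array 2 both genes fell, by 0.39 and 0.41 (limma adjusted p = 0.0108 and 0.0118).

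mRpL43, the remaining member of the large subunit with a high positive difference, read 10.33, 10.65 and 10.02 in wild type and 10.42, 10.45 and 10.46 in trh null embryos. Wild type arrays 2 and 3 lay on either side of the trh null arrays, and its difference of 0.11 (SE 0.16), or 0.27 without wild type array 2, did not pass in either fit. mRpL12 differed little between genotypes (0.026, and 0.081 without wild type array 2), at 11.44, 11.57 and 11.37 in wild type and 11.45, 11.50 and 11.50 in trh null embryos. The same held for mRpL28 (-0.057 and 0.036), at 11.12, 11.37 and 11.07 in wild type and 11.13, 11.13 and 11.12 in trh null embryos.

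The 2 dimmest large subunit members besides mRpL45 showed overlapping genotypes. mRpL48 read 9.43, 9.47 and 9.11 in wild type and 9.29, 9.24 and 9.27 in trh null embryos. mRpL11 read 9.45, 9.93 and 9.50 in wild type and 9.60, 9.50 and 9.57 in trh null embryos. Their differences were -0.067 (SE 0.11) and -0.072 (SE 0.14), or -0.0015 and 0.080 without wild type array 2, so that of mRpL11 turned its sign. With 6 arrays, 8 large subunit members in all had a higher trh null mean against 36 with a lower one.

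In the small subunit, mRpS29 (the fly homologue of mammalian DAP3, a GTP-binding protein) and mRpS21 followed mRpS31. mRpS29 read 9.93, 10.33 and 9.68 in wild type and 9.36, 9.36 and 9.49 in trh null embryos. mRpS21 read 11.07, 11.79 and 10.87 in wild type and 10.70, 10.68 and 10.71 in trh null embryos. The genotypes did not overlap for either gene. With 6 arrays the difference of mRpS29 was -0.58 (SE 0.17, limma adjusted p = 0.0798) and that of mRpS21 was -0.55, and neither passed. Without wild type array 2 that of mRpS21 was -0.28 and again did not pass (limma adjusted p = 0.0526). mRpS29 fell without wild type array 2 (by 0.40, limma adjusted p = 0.0292) and without wild type array 3 (limma adjusted p = 0.0387).

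mRpS24 had the largest positive difference of the small subunit. It read 10.04, 10.56 and 9.88 in wild type and 10.59, 10.46 and 10.45 in trh null embryos. Wild type array 2 lay among the trh null arrays and the other wild type arrays lay below them. The difference of 0.34 (SE 0.18) did not pass, and without wild type array 2 the gene rose by 0.54 (limma adjusted p = 0.00567).

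The mRpS18 genes encode 3 related proteins, and in mammals the homologues of 2 of them lie in the small subunit and that of mRpS18A in the large. mRpS18B read 10.55, 10.92 and 10.48 in wild type and 10.82, 10.81 and 10.80 in trh null embryos. mRpS18C read 10.07, 10.77 and 9.94 in wild type and 10.30, 10.29 and 10.31 in trh null embryos. mRpS18A read 10.84, 11.30 and 10.68 in wild type and 10.85, 10.85 and 10.84 in trh null embryos. In each case wild type array 2 was above, and wild type array 3 below, all trh null arrays. None of the 3 passed with 6 arrays (mRpS18B 0.16, mRpS18C 0.042 and mRpS18A -0.093), while mRpS18B and mRpS18C each rose by 0.30 without wild type array 2 (limma adjusted p = 0.0220 and 0.0277). The difference of mRpS18A was then 0.087. That of mRpS18C was -0.055 without wild type array 1 and -0.12 without wild type array 3, so its direction rested on which wild type array was left out.

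Of the other small subunit members at the ends of the signal range, none passed in either fit. mRpS7, which in bacteria starts the assembly of the subunit head, read 11.37, 11.74 and 11.45 in wild type and 11.65, 11.51 and 11.50 in trh null embryos. mRpS16 read 11.29, 11.88 and 11.11 against 11.21, 11.26 and 11.25. Both had overlapping genotypes. The differences were 0.029 for mRpS7, -0.19 for mRpS16, 0.00066 for mRpS6 and -0.12 for mRpS23. With wild type array 2 left out they were 0.14, 0.041, 0.12 and -0.046 in the same order, so that of mRpS16 turned its sign.

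Beside mRpL54, mRpL27, mRpL14, mRpS31 and mRpS29, the members that fell without wild type array 2 were mRpL20 (by 0.31, limma adjusted p = 0.0302), mRpL42 (by 0.38) and mRpS33 (by 0.29). mRpL42 read 9.82, 10.33 and 9.91 in wild type and 9.60, 9.45 and 9.40 in trh null embryos. mRpS33 read 9.98, 10.67 and 9.90 in wild type and 9.67, 9.68 and 9.61 in trh null embryos. For mRpL42, mRpL20 and mRpS33 all trh null arrays were below all wild type arrays.

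**Figure D3:**
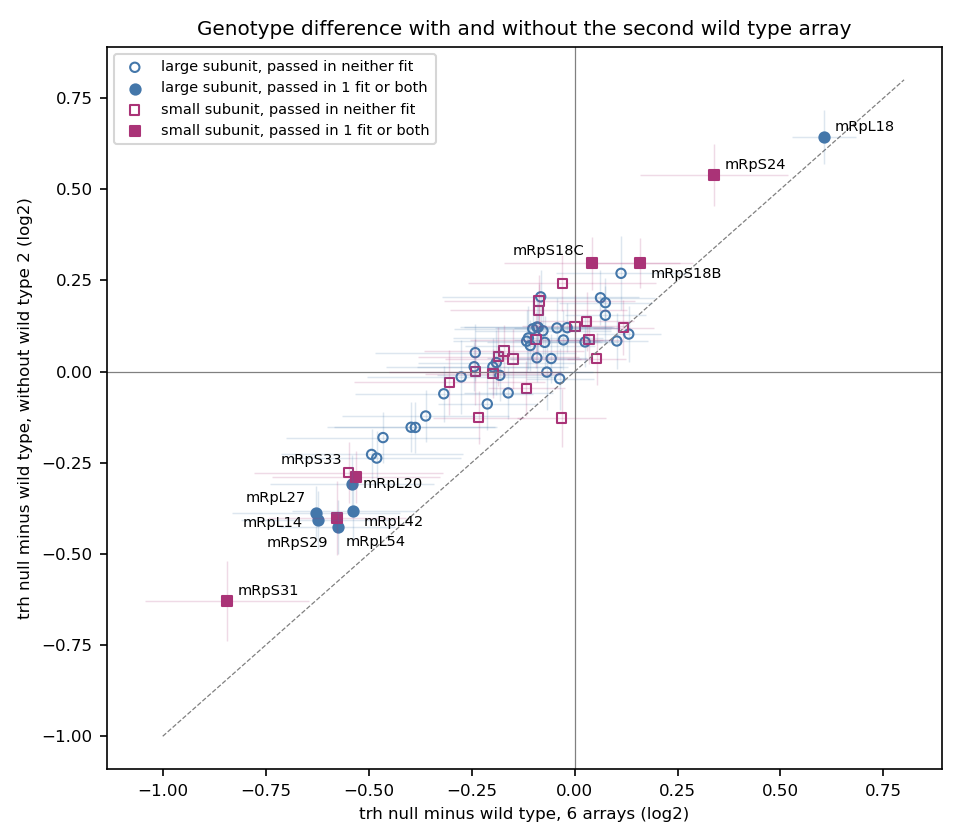
Difference between trh null and wild type embryos (log2) for each of the 69 genes, with 6 arrays on the x axis and without wild type array 2 on the y axis. Bars are the SE of each fit, filled symbols passed in at least 1 of the fits and the dashed line marks equal values. Most points lie above the line, and mRpL18 and mRpS31 stand at the ends in both fits.

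The subunits did not separate. The large subunit had 1 gene that rose, 1 that fell and 42 that did not pass, and the small subunit 0, 1 and 24. At an unadjusted p under 0.05 in the same limma fit, 1 large subunit gene was higher and 5 were lower, and 0 small subunit genes were higher and 3 lower. Of all genes 15.1% were higher and 15.3% lower at that threshold, so these counts are not above the background. Leaving out wild type array 2 gave counts of 1, 5 and 38 for the large and 3, 3 and 19 for the small subunit. The median difference was -0.11 for the large and -0.093 for the small subunit, and 0.037 and 0.041 without wild type array 2. The large minus small median difference was -0.017 (-0.0046 without wild type array 2), and it ran from -0.026 to 0.0032 with 1 array left out. No test is given for it, since genes of a subunit are not replicates.

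The array medians gave the same picture. For the large subunit they were 10.43, 10.86 and 10.33 in wild type and 10.40, 10.39 and 10.41 in trh null embryos. For the small subunit they were 10.55, 10.95 and 10.48 in wild type and 10.59, 10.48 and 10.50 in trh null embryos. On each array the large subunit median was the lower, by 0.088 to 0.15 in wild type and 0.091 to 0.19 in trh null embryos, ranges that overlap.

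**Figure D4:**
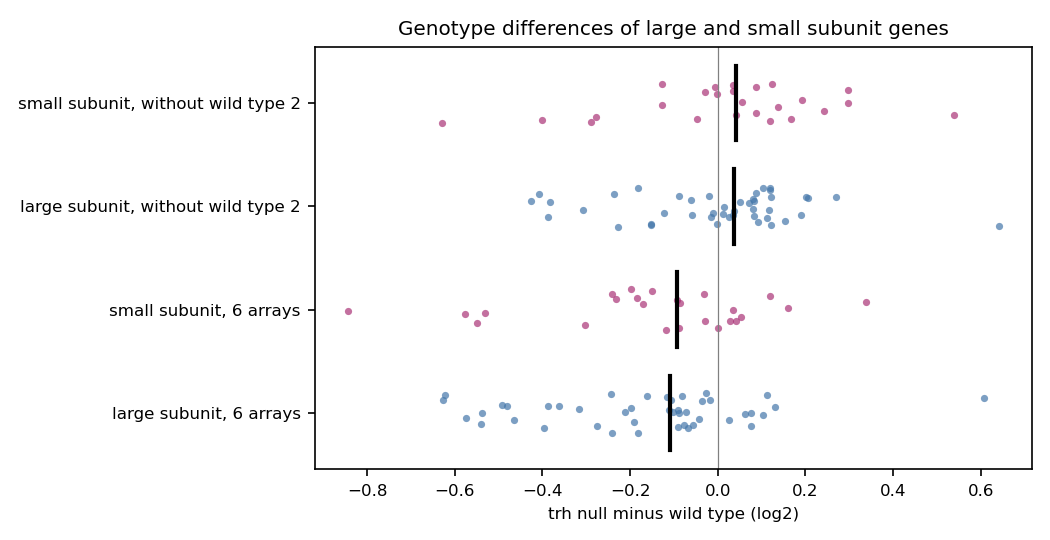
Difference between trh null and wild type embryos (log2) for large and small subunit genes, with 6 arrays and without wild type array 2. Points are genes and black lines the medians, which were -0.11 and -0.093 with 6 arrays and 0.037 and 0.041 without the second wild type array.

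Members were also divided by the number in their name, since numbers up to 36 in the large and 21 in the small subunit follow bacterial ribosomal proteins. By name alone, 40 members were of the bacterial and 29 of the mitochondrial kind. With 6 arrays 1 of the 40 rose and 0 fell, and 0 of the 29 rose and 2 fell, with median differences of -0.084 and -0.20. Without wild type array 2 the counts were 3 and 3 of the 40 and 1 and 5 of the 29, with medians of 0.084 and -0.010. Of all genes, 6.79% rose and 7.31% fell with 6 arrays, and 17.4% rose and 14.8% fell without wild type array 2. The difference between these classes was not tested.

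By chromosome arm, the 69 genes lie 12 on 2L, 10 on 2R, 17 on 3L, 19 on 3R and 11 on X. The trh gene lies on chromosome 3, whose 3L and 3R arms are therefore given apart from the rest. The median difference was -0.078 on 2L, -0.18 on 2R, -0.20 on 3L, -0.092 on 3R and -0.092 on X. With wild type array 2 left out it was 0.025, 0.049, 0.013, 0.087 and 0.071 in the same order. mRpL18 and mRpL54 lie on 2R and mRpS31 on 3L, so the members that passed with 6 arrays were not all on chromosome 3.

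The 2 probe sets of mRpL47 gave like values, -0.47 and -0.45 (-0.18 and -0.16 without wild type array 2), which did not pass. For mRpS11 the brighter probe set had a difference of 0.035 (0.088 without that array) and overlapping genotypes. Its dimmer one read 9.91, 10.08 and 9.83 in wild type and 10.28, 10.19 and 10.16 in trh null embryos, without overlap, and rose without wild type array 2 (0.34, limma adjusted p = 0.0200). The shared probe sets of mRpL53 and mRpS10 had differences of 0.040 and -0.016, and 0.20 and 0.15 without wild type array 2.

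Of the mitochondrial ribosomal protein genes with other symbols, tko (mRpS12, of the decoding site in bacteria) fell and bonsai (mRpS15) did not pass. tko read 11.47, 12.12 and 11.41 in wild type and 10.90, 10.86 and 10.87 in trh null embryos. Its genotypes were well apart, with a log2 difference of -0.79 (SE 0.19, limma adjusted p = 0.0475), and it fell by 0.56 without wild type array 2 (limma adjusted p = 0.00224). Its call was lost with any 1 of the other arrays left out (adjusted p from 0.0502 to 0.163). bonsai read 11.22, 10.88 and 11.15 in wild type and 11.21, 11.25 and 11.23 in trh null embryos, a difference of 0.14 with overlapping genotypes (0.042 without wild type array 2).

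Translation factors of mitochondria had 0 of 10 genes that passed in limma with 6 arrays (0 also at an unadjusted p under 0.05, and 1 rose without wild type array 2), and a median difference of -0.017, which turned to 0.11 without wild type array 2. mIF3, an initiation factor, and mEFTu2, which delivers tRNA to the ribosome, had the largest differences, 0.31 (SE 0.15) and -0.30 (SE 0.17), or 0.35 and -0.10 without that array. Among the 20 enzymes that charge or modify mitochondrial tRNA, GatB fell, LysRS rose and 18 did not pass, and without wild type array 2 there were 2 that fell and 2 that rose. Their median difference was -0.16, and -0.025 without that array. Of all genes, 6.79% rose and 7.31% fell with 6 arrays, and 17.4% rose and 14.8% fell without wild type array 2. GatB, a subunit of the amidotransferase that completes glutaminyl-tRNA in mitochondria, read 7.57, 7.94 and 7.90 in wild type and 6.49, 6.47 and 6.48 in trh null embryos. It was 2.51-fold lower in trh null embryos, a log2 difference of -1.32 (SE 0.12, limma adjusted p = 0.0018), which is more than any of the 69 ribosomal protein genes, and the call held with any 1 array left out (-1.25 without wild type array 2).

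LysRS, a lysyl-tRNA synthetase gene, read 10.13, 10.38 and 10.30 in wild type and 10.82, 10.79 and 10.75 in trh null embryos. Its genotypes did not overlap. It rose by 0.52 (SE 0.09, limma adjusted p = 0.0162), a call that needed all 3 trh null arrays (0.0769 to 0.0812 without 1 of them), and by 0.58 without wild type array 2. GatA, which acts with GatB, had a difference of -0.71 that did not pass (limma adjusted p = 0.0708), and it fell without wild type array 2 (by 0.52, limma adjusted p = 0.0312).

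No gene passed with 6 arrays among 14 for mitochondrial DNA and RNA, 17 for import and chaperones, or 6 regulators of mitochondrial genes (limma). At an unadjusted p under 0.05, 3 of the 14 were higher, 1 of the 17 was higher and 1 lower, and 0 of the 6 differed, against 15.1% of all genes higher and 15.3% lower. When wild type array 2 was left out, 3 of the 14 rose, 2 of the 17 rose and 1 fell, and 1 of the 6 rose. In that fit 17.4% of all genes rose and 14.8% fell. PNPase, of RNA turnover, and mtTFB2, of mitochondrial transcription, had differences of 0.38 and 0.36, and without wild type array 2 PNPase rose by 0.45 while mtTFB2 had 0.13 and did not pass. blp, of the import motor, and Tom7, of the outer membrane channel, had -0.51 and -0.26, and without that array blp fell by 0.38 while Tom7 had -0.10 and did not pass. The median differences were 0.14, -0.053 and 0.069 for the 3 lists in turn, and 0.18, -0.010 and 0.13 without wild type array 2. The regulators measured were M1BP (0.19), Ets97D (0.16), ewg (0.13), Dref (-0.070), foxo (0.0037) and ERR (0.00034). Apart from Ets97D they did not pass without wild type array 2 either, with 0.29 for M1BP, 0.11 for ewg, -0.26 for Dref, 0.13 for foxo and 0.14 for ERR. Ets97D, the fly GABP alpha homologue, read 8.16, 9.01 and 8.17 in wild type and 8.65, 8.48 and 8.67 in trh null embryos, also highest on wild type array 2, and it rose without that array (by 0.44, limma adjusted p = 0.0111).

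Of 76 respiratory chain and ATP synthase genes, 1 rose and 4 fell (all genes 6.79% and 7.31%). Without wild type array 2, 3 of them rose and 14 fell (all genes 17.4% and 14.8%). The median difference of the 76 was -0.13 with 6 arrays and -0.075 without wild type array 2. It thus kept its sign where that of the ribosomal protein genes turned. This contrast between the lists was not tested, and the respiratory chain list holds dimmer genes, down to a mean signal of 4.04 against 8.94 for the 69. UQCR-11 rose by 0.82, while Cyt-c1 fell by 0.53, ND-B12 fell by 0.50 and SdhD fell by 0.49 on the log2 scale (0.96, -0.41, -0.45 and -0.40 without wild type array 2), each call lost in 4 of 6 fits with 1 array left out. Of 34 cytosolic ribosomal protein genes, RpLP2 and RpS10a fell by 0.59 and 0.71, 32 did not pass, and the median difference was 0.015. Without wild type array 2, 2 rose, 3 fell and the median was 0.041, with RpLP2 at -0.53 and RpS10a at -0.51. The call for RpLP2 held in 5 and that for RpS10a in 1 of 6 fits with 1 array left out. RpS10a was dim for this list, with a wild type mean of 6.87 against 14.65 for RpLP2.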

How the data were processed

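Total RNA of whole embryos was amplified from its 3' end, labelled with biotin and hybridised to 1-colour arrays, per the labels' protocols. RMA and Partek were used, per the submitters' processing notes, without versions. The deposited values are log2 signals; base 2 was inferred from RMA and from their range. RMA as usually run makes the distributions of arrays alike, which can hide a shift shared by all transcripts. The scanner files were not analysed here.

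Of 18952 probe sets, 183 controls were left out and 18769 tested. The platform annotation named 1 gene for 13647 of them, several for 402 and none for 4720. A gene was read from the single-gene probe set with the highest mean. RefSeq (Release 6 plus ISO1 MT) gave arms and gene lengths, and all 69 members matched it. limma 3.58.1 (lmFit, eBayes, R 4.3.3) was fitted with genotype as the only term and Benjamini-Hochberg adjustment over all 18769, threshold 0.05. In simulated data with 200 of 18769 probe sets changed, it recovered 0% of changes of 0.5, 67% of 1 and 93.5% of 2 (log2). The share recovered depends on how many probe sets change, so these values describe that setting. "Rose", "fell" and "passed" refer to that threshold.

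The members and lists were chosen with earlier results of these data known. Named by rule were members that passed, the 3 brightest, 3 dimmest, 3 most positive and 3 most negative of each subunit, and up to 4 genes per list. Other members were named after their values were seen. Alternatives for the fit were another variance prior, unmoderated variances, array weights, a replicate block and an adjusted p under 0.01. Those for the values were median centring, a repeat of quantile normalization, cyclic loess, omission of the dimmest 40% of probe sets, averaging of a gene's probe sets, and leaving out each array. Removal of a gene length trend, and placing mRpS18A and mRpS30 with the large subunit, were added after seeing the data. Protein and promoter sequences were not used here. Python 3.11.15 was used with pandas 2.3.3, and matplotlib 3.10.9 drew the figures.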

Additional observations from a re-analysis of the deposited data

Results flagged for a closer look

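The control probe sets of 18S rRNA, which enter none of the comparisons above, separated the genotypes. Their 3' minus 5' log2 signal was 3.44 ± 0.15 on trh null arrays and -0.11 ± 0.28 on wild type arrays (SD, n = 3), above the level in wild type on every trh null array (exact two-sided permutation test, p = 0.1, the smallest possible). The 5' probe set read 12.49, 12.06 and 11.55 in wild type and 7.24, 8.29 and 8.56 in trh null embryos. Wild type array 2, with a 3' minus 5' value of 0.092, lay near the other wild type arrays, at 0.0072 and -0.44. Whether this control signal moves with that of mitochondrial ribosomal protein genes was not tested.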

How the results depend on the processing

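With 1 array left out, 704 to 5001 probe sets passed in place of 2219. The large subunit genes that rose stayed at 1, those that fell numbered 0 to 5 in place of 1, and in the small subunit 0 to 3 rose in place of 0 and 0 to 3 fell in place of 1. The highest numbers came without wild type array 2. Array weights, which gave that array 0.136, let 6003 probe sets pass, with 6 large subunit genes and 4 small subunit genes that fell and 2 small subunit genes that rose. Cyclic loess, and likewise the removal of the gene length trend, gave 3 large and 2 small subunit genes that fell. With unmoderated variances (949 probe sets) and at an adjusted p under 0.01 (738 probe sets), 0 genes of either subunit fell. The other variance prior and median centring each gave 0 large subunit genes that fell. With the replicate block 726 probe sets passed and 0 members rose or fell, mRpL18 included (limma adjusted p = 0.0545). Deviations of same-numbered arrays from their genotype mean correlated at -0.375, -0.0566 and -0.0453, and those of other pairs at -0.185 to 0.369. Whether the numbers pair the arrays is not stated. These correlations cannot decide it, since the 3 deviations of a genotype sum to 0. The subunit medians ran from -0.25 to 0.037 (large) and -0.25 to 0.041 (small) with 1 array left out, above 0 only without wild type array 2, and other settings gave -0.16 to -0.0081 and -0.14 to 0.013. The large minus small median difference over members above the median of all probe sets was the same -0.017, as all 69 lie above it. For genes named by rule, no difference called with 6 arrays changed sign in the settings run. For other genes only leaving out arrays was looked at, and only for members: mRpS18C, which rose without wild type array 2, turned its sign in 2 of 6 such fits. The 3 arrays per genotype, 1 of which stood apart, limit what can be resolved.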
